A study of Homo sapiens with 288 samples.

Results

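LUM, DCN, BGN, FN1, SPARC, POSTN, TNC and THBS1 encode secreted glycoproteins and proteoglycans of connective tissue, and the values of these 8 genes, of 17492 measured, were examined in single EC and TB cells. The genes were found by their symbols in each of 3 tables of expected counts. The list was selected on measured values, because the levels of LUM in EC and TB cells of these same libraries were known when it was drawn up, so their levels, ratios and spread are given as a description and without a test. Both cell types were made from the H1 human embryonic stem cell line. For EC, an endothelial differentiation, H1 cells were seeded in E8 medium with BMP4 at 5 ng/ml and Activin A at 25 ng/ml for 2 days and then received VEGF and WNT for another 3 days. For TB, a trophoblast-like differentiation, they were seeded in E7, which is E8 without FGF2, with BMP4 at 50 ng/ml and SB431542, an inhibitor of the TGF-beta, Activin and Nodal type I receptors. BMP4 was therefore given to both types, and neither the number of cultures nor the time of TB is given in the labels.

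Amplified full-length cDNA of 45 EC and 51 TB cells, captured singly on a microfluidic system, was brought to the same input. It was sequenced in 3 experiments, EQ, EQ-Vary and EQ-75%. EQ-Vary differs from EQ in pooling volume, whereas the authors describe EQ-75% as a repeat of all of EQ at lower depth. Whether EQ-Vary pooled the same single-cell libraries as EQ is not stated, so it is not counted as an independent repeat. EC cells 1, 14 and 41 and TB cells 4, 28 and 48 had under 100000 counts in both EQ and EQ-Vary. In EQ-75% each of them had more. Same-numbered cells of the 3 experiments are the same cDNA and not new cells. Each cell type in each experiment is 1 sample, since no separate cultures are named, so no p-value was computed. SDs describe the spread between cells. Binomial intervals cover the sampling of cells, taken as independent, and Poisson intervals cover counting error. Neither covers differences between cultures. Of 288 libraries, 259 passed the study's limits, which concern depth and the weight of the 50 top genes, with totals of 291346 to 6345155 counts. EQ had 38 passing EC cells and 48 passing TB cells, and values are from EQ unless another experiment is named. Levels are in CPM, the counts of a gene scaled to a library total of 1000000. Marker lists, chosen with earlier results of these data known, describe the types here and do not check their identity. The summed CPM of 15 endothelial markers was 556 to 10502 in EC cells and 4.57 to 138 in TB cells. That of 12 trophoblast markers was 61.6 to 3963 in EC cells and 2377 to 12184 in TB cells, so the types overlapped. KRT18 and KRT8 had the highest means of these 12 in TB, 1926 and 1259 CPM. KRT23, TP63 and CGA, markers of particular trophoblast stages, were under 10 CPM on average in TB.

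As background, connective tissue matrix is laid down mainly by fibroblasts, smooth muscle cells and other mesenchymal cells. Lumican (LUM), decorin (DCN) and biglycan (BGN) are small leucine-rich proteoglycans, short proteins of leucine-rich repeats that carry glycosaminoglycan chains and, in the case of lumican and decorin, bind collagen fibrils and govern their spacing. Fibronectin (FN1) is the adhesive glycoprotein that integrins assemble into fibrils around cells. SPARC, POSTN, TNC and THBS1 (osteonectin, periostin, tenascin-C and thrombospondin-1) are matricellular proteins, which modulate the contact of cells with the matrix rather than building it, and thrombospondin-1 is known as an inhibitor of angiogenesis. Fibronectin and SPARC are also made by endothelial cells and by trophoblast.

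The genes did not behave as a block. LUM, DCN, TNC and THBS1 were at least 4-fold higher in TB, BGN and FN1 were at least 4-fold higher in EC, SPARC was abundant in both types, and POSTN had no count in either. Of the 7 genes that averaged 1 CPM or more in EC or TB, 4 were thus at least 4-fold higher in TB, a threshold met by 16% of all 12751 genes compared, and 2 were at least 4-fold higher in EC, which 10.8% of all genes were. Because the genes were picked for this contrast, nothing is read from those counts. A single gene, LUM, was higher in every TB cell than in any EC cell, which held for 0.110% of all genes.

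**Figure D1:**
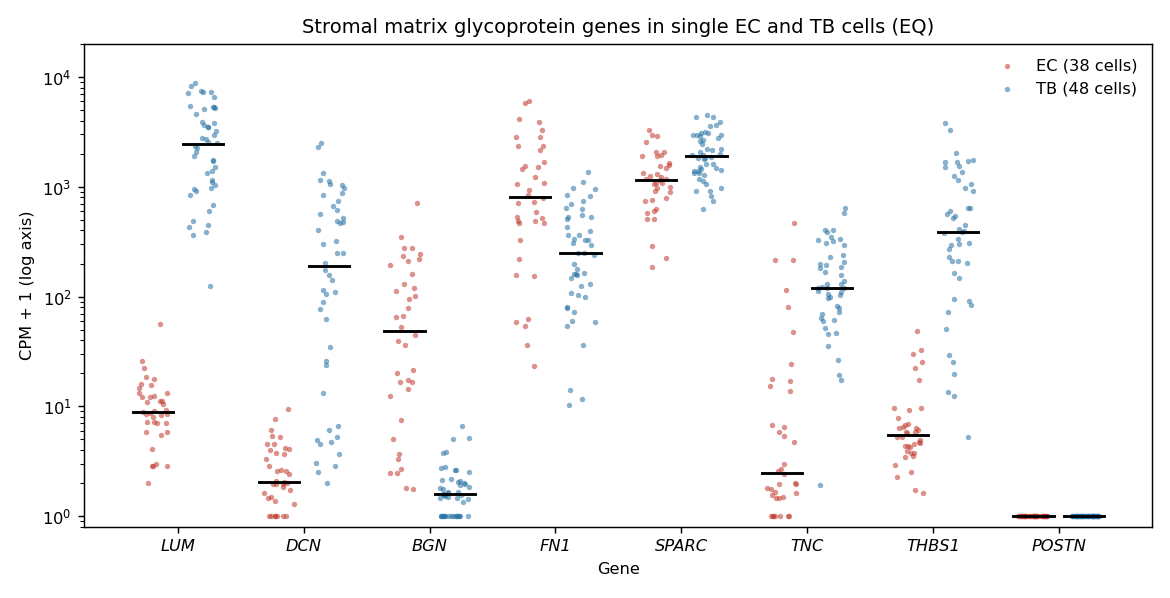
CPM + 1 (log axis) of each gene in the 38 EC cells (red) and 48 TB cells (blue) of EQ, 1 point per cell, with the median as a black bar. LUM is the only gene whose EC and TB cells do not overlap, and POSTN lies at 0 CPM in all 86 cells.

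The promoters of THBS1 and BGN are shown because, of the genes with an entry, they had the highest ratios in favour of TB and of EC. Each is the stretch of 250 bases before the start of the gene in RefSeq on GRCh38.p14, written 5′ to 3′ on the strand of the gene, and 6 of the 8 genes had an entry (LUM and DCN had none). Capitals mark matches to TATAAA (the usual TATA box), to GGGCGG (the GC box), to CCAAT (the box of that name), to TATAAG (another form of the TATA box) and to GGAATG, each searched on both strands. Adjacent or overlapping matches appear as 1 longer run of capitals.
THBS1, chr15:39580829-39581078, plus strand: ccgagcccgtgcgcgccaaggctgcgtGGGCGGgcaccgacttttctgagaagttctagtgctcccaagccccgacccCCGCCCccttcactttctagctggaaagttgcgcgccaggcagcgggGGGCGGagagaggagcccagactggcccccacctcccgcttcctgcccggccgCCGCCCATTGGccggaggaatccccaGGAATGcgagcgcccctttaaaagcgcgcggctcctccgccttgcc
BGN, chrX:153494730-153494979, plus strand: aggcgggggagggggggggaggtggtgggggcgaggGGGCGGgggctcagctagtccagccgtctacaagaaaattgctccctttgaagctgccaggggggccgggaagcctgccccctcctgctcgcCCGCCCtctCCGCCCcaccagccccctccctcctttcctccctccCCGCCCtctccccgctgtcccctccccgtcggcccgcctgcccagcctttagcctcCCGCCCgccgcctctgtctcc

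TATAAG stood 27 bases before the RefSeq start of TNC, which lies inside the gene as GENCODE draws it, and 28 bases before that of FN1, and was held by 5.03% of 35116 promoters of the same length. TATAAA was found in POSTN alone of the 6, 29 bases before the RefSeq start and once more on the other strand, and in 10.7% of all promoters. The RefSeq starts of POSTN, SPARC and FN1 also lie inside the genes as GENCODE draws them, so these distances hold for the RefSeq starts alone. The GC box letters were present in BGN, FN1, TNC and THBS1 and in 42.6% of all promoters, the CCAAT letters in FN1 and THBS1 and in 32%, and GGAATG in SPARC and THBS1 and in 11.9%. None of them was found in both TNC and THBS1 and in neither BGN nor FN1, or the reverse. The share of G and C was 74.0% in BGN, 76.4% in FN1, 69.6% in THBS1, 59.2% in SPARC, 54.8% in TNC and 36.4% in POSTN, beside a median of 58.0%. A match describes the sequence and is no evidence of a site in use.

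LUM (ENSG00000139329) lies on chromosome 12 from 91102629 to 91111494, on the minus strand of GRCh38, and is best known from the cornea, where lumican carries keratan sulfate. In TB cells it ranged from 124 CPM to 8864 CPM with a median of 2438, and its mean of 3042 ± 2423 CPM (SD, n = 48 cells) made it the gene of rank 15 by mean CPM in that type. In EC cells it ranged from 0.996 CPM to 55.6 CPM with a median of 7.96 and a mean of 10.2 ± 9.28 CPM (SD, n = 38 cells). Every TB cell thus stood above every EC cell, and the means differed 297-fold. The ratio was 342-fold in EQ-Vary and 345-fold in EQ-75%, without overlap of the types in either. With LUM, 14 genes had no overlap in this direction, among them the trophoblast marker VTCN1 and the fibrillar collagen gene COL3A1. Of the TB cells, 36 of 48 had at least 1000 CPM of LUM.

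All 38 EC cells had at least 2 counts of LUM, which would score the gene as detected in all of them (95% exact binomial interval 90.7 to 100%) at a median total of 2025136 counts, beside 1968563 in TB. The counts behind that share were few and varied little with depth, and with every library thinned to 250000 counts the share was 81.8%. The median was 16 counts per EC library and the highest 39. Over passing EC cells, the log2 count of LUM had a correlation of 0.04 with log10 total count, where SPARC had 0.69 in EC and 0.69 in TB. In 3 EC libraries of EQ that were left out for totals of 11404 to 13913 counts, LUM still had 5 to 18 counts, where SPARC had 15 to 22 counts against a median of 2372 in passing EC cells. With all 96 cells of EQ, these libraries included, the log2 ratio of EC to TB for LUM was -5.48 in place of -8.21. On the CPM scale LUM in passing cells had a correlation of -0.60 with log10 total in EC and of 0.05 in TB. These correlations are over cells of 1 experiment and are given as a description.

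**Figure D2:**
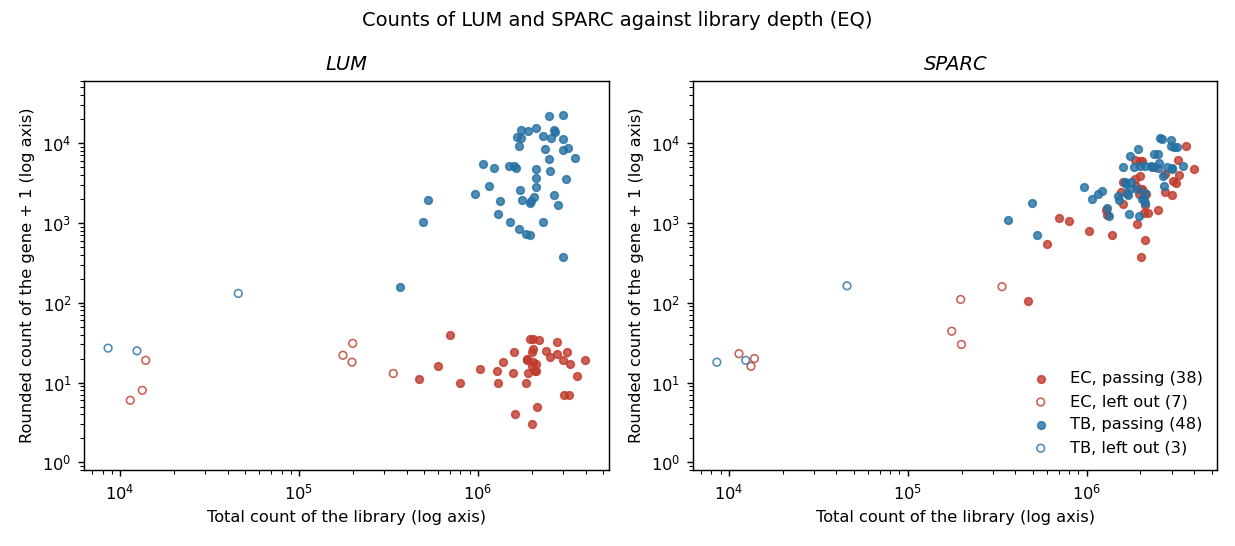
Rounded count + 1 of LUM (left) and SPARC (right) against the total count of the library, both on log axes, for the libraries of EQ, with passing libraries filled and left-out libraries open. SPARC counts grow with the total in both types, whereas LUM counts in EC stay between 2 and 39 in passing libraries over the whole range of totals.

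The mean CPM of LUM in EC was 0.337% of that in TB. Of 2170 genes with at least 100 CPM in TB, 49 had a mean in EC under 1% of that in TB, and the percentages of these 49 had a lower quartile of 0.311%, a median of 0.343% and a minimum of 0.228%. The percentage was 0.319% for VTCN1 and 0.328% for COL3A1, which like LUM had no overlap between the types. Of the trophoblast markers with at least 50 CPM in TB, 6 ran from 0.319% to 17% with a median of 4.17%. Among these 6, 3 were under 1%. The others, GATA3 and TFAP2A, were less specific to TB and stood at 50.8% and 30.9%. In the other direction, 64 of 2247 genes with at least 100 CPM in EC were under 1% in TB, with a median of 0.274%. The paper states that the libraries of EQ, EQ-Vary and EQ-75% went into pools of 96 samples for a lane. Each experiment has 96 cells, EC and TB together. The source of the LUM counts in EC libraries was not tested. The ratios of LUM and DCN take the EC counts as they stand, and would be lower bounds if some of these counts did not come from the EC cells.

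DCN (ENSG00000011465, chromosome 12, 91140484 to 91183217, minus strand) is the neighbour of LUM. In TB it ranged from 1.01 CPM to 2513 CPM with a median of 188 and a mean of 429 ± 566 CPM (SD, n = 48 cells). In EC it ranged from 0 to 8.48 CPM with a median of 1.05 and a mean of 1.87 ± 1.97 CPM (SD, n = 38 cells). The means differed 229.7-fold, and 339-fold in EQ-75%. Unlike LUM, DCN overlapped between the types, with 37 of 48 TB cells above the highest EC cell and the other 11 within the range of EC. It had a count in 31 of 38 EC cells and in all 48 TB cells, which became 32.9% and 89.7% with every library thinned to 250000 counts. The mean of DCN in EC was 0.435% of that in TB, and from summed counts 0.340% (95% exact Poisson interval of the EC count 0.284 to 0.405%), and the source of these counts was likewise not tested.

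LUM and DCN are part of a group of small leucine-rich proteoglycan genes on chromosome 12, of which EPYC had 0 counts in either type and KERA, the gene of the corneal proteoglycan keratocan, had a count in 2 of 48 TB cells and in none of 38 EC cells. For a gene without a count, 3 divided by the number of cells is an approximate 95% upper limit on the share of cells with a count. For KERA in EC this limit was 7.89%. Of the other members of the family, PRELP was present at similar levels in both types, 42.1 ± 28.5 CPM in EC and 31.8 ± 19.5 CPM in TB, and TSKU, a secreted regulator of several signalling pathways, had 16.5 ± 69.2 CPM in EC and 6.58 ± 20.1 CPM in TB. FMOD (fibromodulin) had no count. Of 17 genes of the family, 11 reached a mean of 1 CPM, and 4 of these were at least 4-fold higher in TB and 2 in EC. These counts include the members described here and stand beside 16% and 10.8% of all genes. The median log2 ratio of TB to EC of the 11 was -0.28 beside 0.08 over all genes. Of the 6 past the threshold, those other than LUM, DCN and BGN had means under 10 CPM in both types.

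BGN (ENSG00000182492, chromosome X, 153494980 to 153509546, plus strand), the closest relative of DCN among the measured proteoglycans, had the reverse pattern. In EC it ranged from 0.773 CPM to 717 CPM with a median of 48.1 and a mean of 104 ± 141 CPM (SD, n = 38 cells). In TB it ranged from 0 to 5.61 CPM with a median of 0.583 and a mean of 0.926 ± 1.19 CPM (SD, n = 48 cells). Of the EC cells, 30 of 38 were above the highest TB cell and 14 had at least 100 CPM. The ratio of means was 112-fold in EQ, 82.5-fold in EQ-Vary and 74.1-fold in EQ-75%. A count was present in all 38 EC cells and in 33 of 48 TB cells (68.8%, exact binomial interval 53.7 to 81.3%), but in no TB cell did it exceed 13 counts. By mean CPM, BGN in TB was 0.894% of that in EC, and from summed counts 0.816% (exact Poisson interval of the TB count 0.653 to 1.01%). From summed counts it was 1.31% in EQ-Vary and 1.23% in EQ-75%, both outside this interval, which covers counting error alone. The 11 endothelial markers with at least 50 CPM in EC had means in TB of 0.142% to 2.94% of those in EC, with a median of 0.267%, so BGN was within their range, and the source of the BGN counts in TB was not tested.

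FN1 (ENSG00000115414, chromosome 2, 215360440 to 215436073, minus strand) ranged from 22.3 CPM to 6020 CPM in EC with a median of 814, and from 9.27 CPM to 1368 CPM in TB with a median of 249. Its means were 1418 ± 1534 CPM in EC (SD, n = 38 cells) and 353 ± 322 CPM in TB (SD, n = 48 cells). The types overlapped over most of their range, with 14 of 38 EC cells above the highest TB cell and 6 of 48 TB cells above the EC median. The ratio of 4.02-fold lay at the 4-fold threshold, and was 3.89-fold in EQ-Vary and 4.03-fold in EQ-75%. FN1 was detected in every passing cell. Of 17 genes of fibronectin, fibulins, fibrillins and basement membrane glycoproteins, FN1 among them, 7 were at least 4-fold higher in EC and 3 in TB, beside 10.8% and 16% of all genes, with a median log2 ratio of TB to EC of -0.67. NID1 (nidogen-1, a basement membrane linker) had 157 ± 205 CPM in EC and 1.76 ± 9.84 CPM in TB, whereas LTBP1, which binds latent TGF-beta, had 187 ± 247 CPM and 153 ± 170.4 CPM, and FBLN1 (fibulin-1) had 114 ± 121 CPM and 162 ± 146 CPM.

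SPARC (ENSG00000113140, chromosome 5, 151661096 to 151686975, minus strand) was the most even of the genes. It ranged from 185 CPM to 3292 CPM in EC with a median of 1157, and from 624 CPM to 4518 CPM in TB with a median of 1909. The means, 1297 ± 756 CPM (SD, n = 38 cells) and 2125 ± 1015 CPM (SD, n = 48 cells), differed 1.64-fold in favour of TB, and 7 of 38 EC cells were above the TB median. The difference of the means is thus close to the SD between cells of either type. FSTL1 (follistatin-like 1), which shares a domain with SPARC, stood at 691 ± 429 CPM in EC and 1179 ± 611 CPM in TB, a ratio of 1.71-fold. Of the 4 genes of the SPARC family that reached 1 CPM, 1 was at least 4-fold higher in EC, beside 10.8% of all genes. In TB it was 0, beside 16%. The gene higher in EC was SPOCK3 (testican-3), with 12.7 ± 42.2 CPM in EC and 0.0570 ± 0.395 CPM in TB.

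POSTN (ENSG00000133110, chromosome 13, 37562583 to 37598844, minus strand) had 0 counts in all 288 libraries, left-out libraries included. For the 86 passing cells of EQ, the same approximate upper limit on the share of cells with a count was 3.49%. TGFBI, which shares the fasciclin domains of periostin, was detected in 35 of 38 EC cells and all 48 TB cells, with 33 ± 116 CPM and 389.7 ± 324 CPM.

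TNC (ENSG00000041982, chromosome 9, 115019575 to 115118207, minus strand) ranged from 0.941 CPM to 639.7 CPM in TB with a median of 120.3 and a mean of 173 ± 143 CPM (SD, n = 48 cells). In EC it ranged from 0 to 472 CPM with a median of 1.49 and a mean of 33.2 ± 89.4 CPM (SD, n = 38 cells). The ratio of the means was 5.21-fold, and the EC mean rested on few cells, since 3 EC cells held 71.3% of the summed CPM, 4 were at or above 100 CPM and 7 had no count. Of the TB cells, 2 of 48 were above the highest EC cell. The same EC cell, number 24, was highest in all 3 experiments, with 472 CPM in EQ, 457 CPM in EQ-Vary and 365 CPM in EQ-75%.

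THBS1 (ENSG00000137801, chromosome 15, 39581079 to 39599466, plus strand) ranged from 4.23 CPM to 3837 CPM in TB with a median of 389.7 and a mean of 718 ± 835 CPM (SD, n = 48 cells), and from 0.609 CPM to 47.9 CPM in EC with a median of 4.48 and a mean of 7.97 ± 10.0 CPM (SD, n = 38 cells). Of the TB cells, 42 of 48 were above the highest EC cell. The ratio was 90.1-fold in EQ, 83.1-fold in EQ-Vary and 130.3-fold in EQ-75%. From summed counts, THBS1 in EC was 1.2% of that in TB (exact Poisson interval of the EC count 1.11 to 1.30%), above the percentages of LUM (0.267%) and DCN. The THBS1 percentage was 1.03% in EQ-Vary and 0.841% in EQ-75%, both outside this interval. For THBS1, 1 EC cell, number 43, was highest in all 3 experiments, with 47.9, 46.3 and 37.8 CPM. A count of THBS1 was present in all 38 EC cells, and after thinning in 68.5%. Of the 5 thrombospondin, tenascin and periostin family genes that reached 1 CPM, 4 were at least 4-fold higher in TB (THBS1, TNC, TGFBI and THBS3). In EC it was 1, and the shares over all genes were 16% in TB and 10.8% in EC. THBS1 and TNC are among the 8 genes picked for this contrast, so nothing is read from these counts. THBS3 had 7.53 ± 20.7 CPM in EC and 32.9 ± 75.8 CPM in TB.

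**Figure D3:**
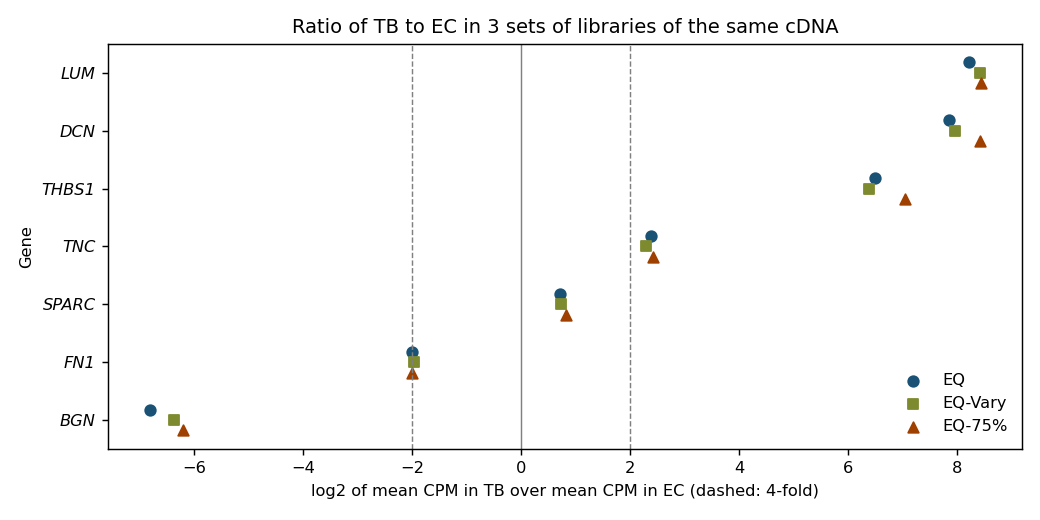
Log2 of the mean CPM in TB over the mean CPM in EC for each gene with a count, in EQ (circles), EQ-Vary (squares) and EQ-75% (triangles), with dashed lines at 4-fold. The order of the genes from LUM (8.21 in EQ) to BGN (-6.81 in EQ) is close to the same in the 3 sets, FN1 lies on the EC threshold, and the sets are libraries of the same cells.

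Levels of different genes were compared per kilobase of the canonical transcript. In TB the order was LUM with 1139 ± 907 CPM per kilobase, SPARC with 616 ± 294, THBS1 with 92.2 ± 107, DCN with 62.7 ± 82.6, FN1 with 42 ± 38.4, TNC with 20.3 ± 16.9 and BGN with 0.394 ± 0.507 (SD between 48 cells). In EC it was SPARC with 376 ± 219 CPM per kilobase, FN1 with 169 ± 183, BGN with 44 ± 59.8, TNC with 3.91 ± 10.5, LUM with 3.83 ± 3.47, THBS1 with 1.02 ± 1.29 and DCN with 0.273 ± 0.287 (SD between 38 cells). In TB, LUM and SPARC, THBS1 and DCN, DCN and FN1, and FN1 and TNC differed by less than the larger of their SDs. In EC every pair of neighbours in the order did. The canonical DCN transcript is 6850 bp with a coding length of 1077 bp, and per kilobase of coding length DCN stood above THBS1 in TB (399 against 205 CPM). The genes together took 0.287% of the counts of an EC cell and 0.684% of those of a TB cell on average. FN1 made up 49.4% and SPARC 45.2% of this sum in EC, whereas in TB LUM made up 44.5%, SPARC 31.1% and THBS1 10.5%. LUM had the most counts of the genes in 25 of 48 TB cells and SPARC in 18, while in EC SPARC came first in 20 of 38 cells and FN1 in 18.

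The spread between cells of a type was compared with that of genes of like level. The CV of CPM between cells was divided by the running median CV of genes nearest in mean CPM. In TB, 3 of 6 genes were at or above 1.5 times this trend, THBS1 at 2.27, DCN at 2.24 and LUM at 1.84, a limit reached by 8.96% of all 11899 genes in that type. FN1 was at 1.44, SPARC at 1.10 and TNC at 1.02. In EC, 1 of 7 genes was past the limit, FN1 at 1.99, beside 12.4% of all 11490 genes, and TNC was at 1.37, SPARC at 1.05 and BGN at 1.05. LUM, DCN and THBS1 in EC had far less spread than genes of their level, with ratios of 0.357, 0.283 and 0.448. These ratios rest on few counts, with medians of 16, 2 and 7.5 per EC library. The source of the LUM and DCN counts in EC was not tested, so the low ratios are not read as even expression in EC cells. Since the spread was also known when the genes were picked, nothing is read from the number of genes past the limit.

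**Figure D4:**
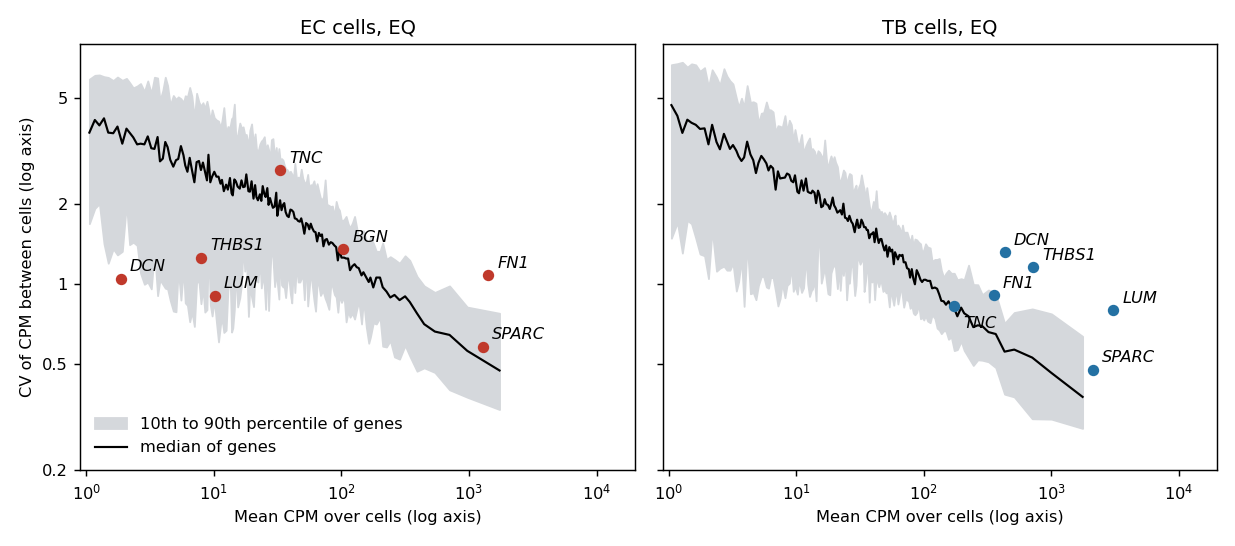
CV of CPM between cells against mean CPM, both on log axes, for EC (left) and TB (right) cells of EQ, with the median (line) and the 10th to 90th percentile (band) of genes binned by mean CPM. In TB, LUM, DCN and THBS1 lie above the trend by 1.84 to 2.27 times, and in EC they lie below it, where FN1 lies above it.

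The differences between cells recurred when libraries were prepared again from the cDNA. Within the same cells, the log2(CPM + 1) values of EQ and EQ-75% correlated at 0.99 for LUM, DCN, TNC, THBS1 and FN1 in 47 TB cells, and at 1 (to 2 decimals) for FN1, 0.98 for BGN and 0.96 for TNC in 37 EC cells. The SD between cells exceeded the SD of the within-cell difference 6.62-fold for LUM in TB, 7.80-fold for DCN and 10.3-fold for FN1 in EC. For LUM in EC the correlation was 0.51 and for DCN in EC 0.30, with SDs between cells no larger than those within cells (ratios of 0.919 and 0.910). For THBS1 in EC the correlation was 0.74, and for BGN in TB it was 0.55. The points are the same cDNA, so they show how repeatable a cell's value was and not how cultures vary.

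**Figure D5:**
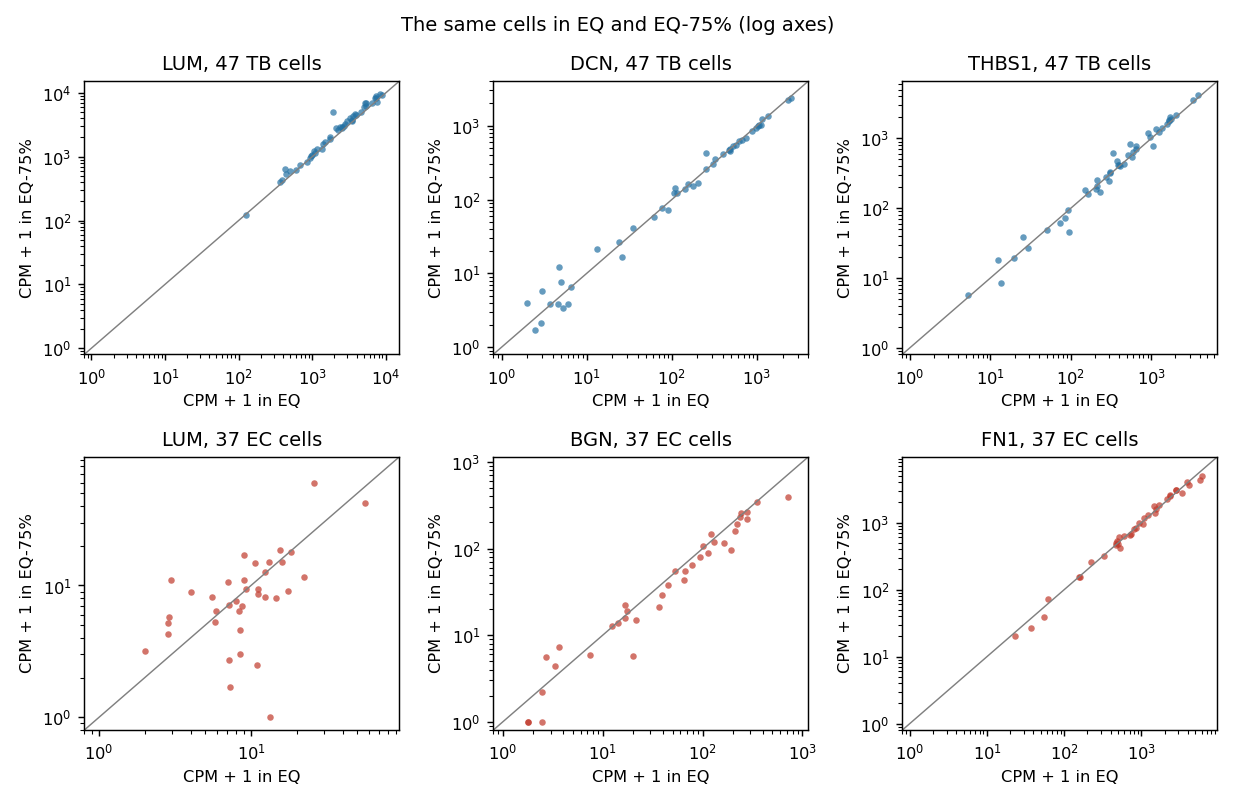
CPM + 1 of the same cells in EQ and EQ-75% (log axes, with the line of equality) for LUM, DCN and THBS1 in TB cells and LUM, BGN and FN1 in EC cells, 1 point per cell. LUM in EC is scattered (r = 0.51), whereas the points of the other panels run along the line. LUM in TB lies slightly above it, and BGN in EC lies below it in 27 of 37 cells.

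Between EQ and EQ-75%, none of the genes moved by a median of 0.5 or more on the log2 scale within cells, 0 of 7 in EC and 0 of 6 in TB, beside 1.29% and 0.345% of all genes. LUM in TB was nevertheless higher in EQ-75% in 43 of 47 cells, by a median of 0.20, where the median of all 11888 genes was 0.00 and 1.77% of genes shifted upwards as far. Between EQ and EQ-Vary it shifted by 0.01. In EC the largest shifts were -0.25 for THBS1 and -0.23 for BGN, and 5% of all genes there fell by 0.35 or more.

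Within a type, the genes varied mostly apart. Over 21 pairs, the correlation of log2(CPM + 1) between cells ran from -0.11 to 0.27 in TB with a median of 0.08, and from -0.37 to 0.49 in EC with a median of 0.06. LUM and DCN, adjacent on the chromosome and both high in TB, had a correlation of 0.03 over the 48 TB cells and of 0.01 in EQ-75%. The highest pair in EC was LUM and DCN at 0.49, at the low counts described above, and the next was FN1 and TNC at 0.48. In EC the CPM of LUM and of DCN both fell with log10 total (r of -0.60 and -0.28). How much of the 0.49 comes with this shared dependence on the total was not tested. The cells are those of 1 experiment, and no p-value was computed.

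The genes with the most similar pattern were sought among those detected in at least 10 cells of the type in which the gene is higher. For LUM over 48 TB cells they were SNAPC3 (r = 0.57), PRSS23 (0.56) and S100A10 (0.54), and in EQ-75% the same pairs had correlations of 0.45, 0.57 and 0.52. For DCN they were DHX29 and ARPP19 (both 0.50) and TGIF1 (0.49). For THBS1 they were AMOTL2 (0.64), CCN2 (0.53) and SNX5 (0.49), of which SNX5 had a Spearman's rho of 0.24. For BGN over 38 EC cells they were DECR1 (0.59), CDYL (0.58) and TAX1BP3 (0.56). These were the highest of 11439 genes in TB and of 10602 in EC, and a correlation of this size at the top of so many is a description only.

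Of the other matricellular genes, CCN1 and CCN2, secreted proteins induced by serum and by mechanical load, followed THBS1 in direction, with 26.1 ± 83.0 CPM in EC and 202 ± 167 CPM in TB for CCN1, and 0.816 ± 1.83 CPM and 248 ± 262 CPM for CCN2. ECM1, a secreted matrix protein, had 129 ± 171 CPM in EC and 0.566 ± 1.64 CPM in TB. In this list, 3 of 5 genes that reached 1 CPM were at least 4-fold higher in TB, beside 16% of all genes. In EC it was 1, beside 10.8%. Receptors of the 8 proteins were split. ITGA5, whose product pairs with that of ITGB1 as the main fibronectin receptor, had 418 ± 352 CPM in EC and 12.9 ± 28.6 CPM in TB, and ITGB1 had 1420 ± 619 CPM and 674 ± 472 CPM. SDC4 (syndecan-4), a co-receptor of fibronectin, had 181 ± 154 CPM in EC and 797 ± 517 CPM in TB, and CD47, a receptor of thrombospondin-1, had 305 ± 349.9 CPM and 155 ± 135 CPM. Of 16 receptor genes, 6 were at least 4-fold higher in EC and 5 in TB, beside 10.8% and 16% of all genes. The median log2 ratio of TB to EC of the 16 was -1.03.

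Proteoglycans such as BGN, DCN and LUM carry chondroitin, dermatan or keratan sulfate chains. Of 20 genes of glycosaminoglycan chain synthesis, 6 were at least 4-fold higher in EC, beside 10.8% of all genes, 1 was at least 4-fold higher in TB, beside 16%, and 13 were within 4-fold, with a median log2 ratio of TB to EC of -0.34. CHSY1 and CSGALNACT1, which elongate and start chondroitin chains, had 206 ± 220.4 CPM and 162 ± 249.8 CPM in EC and 19.4 ± 36.7 CPM and 18.9 ± 60.7 CPM in TB. B3GNT7 and CHST6, which take part in keratan sulfate synthesis, were at like levels in both types. B3GNT7 had 75.4 ± 199 CPM in EC and 85.0 ± 91.8 CPM in TB. CHST6, named after its values were seen, had 64.5 ± 32.2 CPM and 56.3 ± 50.1 CPM. B4GALT4, the highest of the 20 genes in TB, was 2.32-fold higher there, with 55.7 ± 127 CPM in EC and 129 ± 133 CPM in TB.

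Of 12 mesenchymal and pericyte markers that reached 1 CPM, 3 were at least 4-fold higher in TB (COL3A1, COL1A1 and TAGLN), beside 16% of all genes. In EC it was 2 (RGS5 and THY1), beside 10.8%. The median log2 ratio of TB to EC of the 12 was 0.09, beside 0.08 over all genes. The summed CPM of the whole list of 14 ranged from 668 to 5624 in EC and from 303 to 3345 in TB. COL3A1 had 735 ± 458 CPM in TB and 2.41 ± 2.72 CPM in EC, COL1A1 had 279.8 ± 305 CPM and 21.8 ± 84.5 CPM, and COL1A2 had 294 ± 218 CPM in TB and 840.0 ± 757 CPM in EC. RGS5 had 794 ± 418 CPM in EC and 4.56 ± 10.2 CPM in TB. The mesenchymal transcription factor gene PRRX1, named after its values were seen, had 0 counts in TB and 6 counts over all EC cells. The receptor gene PDGFRA, named likewise, had a count in 14 of 48 TB cells and 13 of 38 EC cells. Of the rest of the list, PDGFRB had a count in 38 TB and 11 EC cells, ACTA2 in 39 and 23, and DES in 47 and 38. TWIST1 had a count in 16 TB and 13 EC cells, KCNJ8 in 10 and 4, and CSPG4 in 1 and 3. Of 7 pluripotency markers, 1 was at least 4-fold apart, higher in TB (L1TD1), beside 16% of all genes in that direction.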

How the data were processed

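The authors trimmed the reads, mapped them with Bowtie 1.2.3 to the protein-coding genes of GRCh38, allowing 2 mismatches, and estimated the expected counts per gene with RSEM 1.2.31 after base calling with CASAVA 1.8.2. The expected counts were deposited without normalization, 1 table per experiment, and 0 sample columns were left unused. Libraries that were not part of EQ, EQ-Vary or EQ-75% were not analysed here.

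Expected counts were rounded, a gene was detected at a rounded count of at least 1, and CPM were taken over all genes of a library. Libraries were left out at a log10 total under 5.4 or with over 31% of counts in 50 genes. No doublet caller was run. With 1 sample per type and experiment no test was made. Ratios are of mean CPM over cells, for genes with at least 1 CPM in either type, and with 0 counts in one type the level was set to 3 counts over that type. The same-numbered cells are the same cDNA per the labels, so shifts were taken within cells, on log2(CPM + 1). Median totals of passing libraries were 1499256 to 2025136 counts per type and experiment.

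The 8 genes and all gene lists were chosen with earlier results of these data known. Named genes are the 8, up to 3 of the highest in EC and in TB of each list at 10 CPM or more, 3 proteoglycan genes at or near 0, and the 3 with the highest correlation to LUM, DCN, BGN and THBS1. TAGLN, THBS3, SPOCK3, KRT23, TP63, CGA, TFAP2A, CHST6, PRRX1, PDGFRA, PDGFRB, ACTA2, DES, TWIST1, KCNJ8 and CSPG4 fall outside this rule and were named after their values were seen. Gene positions are from GENCODE v44 and promoters from RefSeq. The ratio and spread steps were tested on simulated data. Python 3.11.15 (numpy 2.4.6, pandas 2.3.3, scipy 1.17.1, matplotlib 3.10.9) and, for alternative size factors, scran 1.30.0 and edgeR 4.0.16 in R 4.3.3 were used.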

Additional observations from a re-analysis of the deposited data

How the results depend on the processing

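The number of genes at least 4-fold higher in TB was 4 under each of the alternatives tried, a 2-fold threshold included. The number higher in EC was 2, and was 1 with all 96 cells, with median CPM in place of the mean and in EQ-Vary, where FN1 fell below 4-fold. With all 96 cells, which adds near-empty libraries, the log2 ratio of EC to TB was -5.48 for LUM against -8.21, -5.55 for DCN against -7.84, 5.07 for BGN against 6.81 and -5.54 for THBS1 against -6.49. In EQ-75% that of BGN was 6.21. The other 37 of 42 ratios moved by less than 1.5-fold and none changed sign. Genes past the spread limit in EC were 1, 2 with all EC cells and 0 at 2 times the trend, and in TB 3, with 2 at 2 times the trend. The share of cells with a count left the binomial interval in 13 of 48 cases, for example BGN in TB, 68.8%, which was 8.33% at 5 counts or more and 19.1% after thinning to 250000 counts. Without the replicate block, that is with medians over cells in place of within-cell differences, 0 genes shifted between EQ and EQ-75% in either type, as with it. Another scaling moved the median of all genes by at most 0.08 on the log2 scale, and median CPM by 0.25. Depth limits the low side of each ratio, because levels under 1 CPM rest on a few counts per library, and with 1 sample per type no difference could be tested against the spread between cultures.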
